A study of Rattus norvegicus with 6 samples.

Results

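The genes described here build the motile axoneme, the microtubule shaft of a beating cilium, and the transport trains and gate that supply cilia in general. They were taken by name from the gene table. Symbols beginning with Dnah, Dnai, Dnal, Cfap, Rsph, Drc or Tekt and a number, together with Hydin, Spag6, Spag16, Spag17, Ak7 and Pifo, made up the motile axoneme class. Symbols beginning with Ift, Bbs or Tctn and a number made up the transport and transition zone class. The rule found 86 of the 32623 listed genes, 63 in the motile axoneme class and 23 in the transport class, and used no measured value. Foxj1, which the rule also names, was not analysed here.

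The RNA came from spinal cords of female Wistar rats aged 8 weeks. Every library was made from the injury model: 3 received electrical stimulation (ES) and 3 did not (SCI), and no uninjured cord was part of the comparison. The labels tie no library to an animal, so that p-values measure only how these 6 libraries spread, and that spread may be technical. The sources used here give neither the spinal segment, nor the time since injury, nor the stimulation settings.

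A cilium is a microtubule shaft that projects from the cell surface. Motile cilia carry outer and inner dynein arms on their doublet microtubules, and these arms, held in register by radial spokes, the nexin-dynein regulatory complex and a central pair, bend the shaft. In the spinal cord, motile cilia belong to the ependymal cells that line the central canal. Neurons and some, but not all, glia carry a single primary cilium that lacks the beating machinery and serves in signalling. Both kinds are built by intraflagellar transport, in which trains that hold both the IFT-A and IFT-B complexes move outwards with kinesin and return with dynein. The BBSome sorts membrane proteins on these trains, and the transition zone is the gate at the base.

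The estimated depth was 13900000 to 18600000 read pairs per library. Log2 profiles correlated at 0.9835 to 0.9858 within groups and at 0.9616 to 0.9653 across them, and mitochondrially encoded genes held 15.3% to 15.5% of summed FPKM in ES against 11.1% to 12.1% in SCI. Of 15750 genes tested, 4341 fell and 2747 rose in ES at a Benjamini-Hochberg adjusted p under 0.05 in limma, which is 27.6% and 17.4%. The groups differed in many cell type markers. All 4 oligodendrocyte markers, all 5 microglia markers and 4 of 5 neuron markers were called higher in ES, whereas 4 of 5 astrocyte markers and all 5 fibroblast and meninges markers were called lower.

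Motile axoneme genes were mostly lower with stimulation. Of the 63 members, 44 reached a mean of 0.5 FPKM (fragments per kilobase of gene, scaled to the library's size) and were tested, and 26 of them fell, 2 rose (Cfap36 and Cfap52) and 16 were not called. Their median log2 fold change on log2(FPKM + 1) was -0.40, where that of all genes tested was -0.057, and their median ratio of SCI to ES mean FPKM was 1.62 against 1.05 for all genes tested. In 31 of the 44 all 3 ES libraries lay below all 3 SCI libraries and in 2 all lay above, where 34.6% and 21.9% of all genes tested did so. Because a gene that is low in one group can pass the filter through the other, the members were also split: 22 of the 36 whose means passed 0.5 FPKM in both groups fell, beside 27.4% of such genes in the whole table, and 4 of the 8 with one group under it fell, beside 32.5% of such genes. In bulk tissue, fewer ciliated cells and less RNA per ciliated cell cannot be told apart.

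The 23 transport and transition zone members, which were all tested, moved less. A fall was called for 7 (Bbs1, Bbs2, Bbs4, Ift122, Ift140, Ift22 and Tctn3), a rise for 1 (Ift74), and 15 were not called. Their median log2 fold change was -0.13, where that of all genes tested was -0.057. All ES libraries lay below all SCI libraries in 13 of the 23 and above in 1, where 34.6% and 21.9% of all genes tested did so. With quantile normalization and median centring the transport median was -0.0068 and -0.038, and the motile median -0.27 and -0.31. The called-lower share of the motile class, 59.1%, was above the 27.6% of all genes tested, while the 30.4% of the transport class was near it. No test was made of the difference between the classes. The motile count depended on scaling and on the size asked for. It was 15 after quantile normalization, 17 after median centring and 9 when a change of at least 1.5-fold in FPKM + 1 was required. Falls among all 15750 genes tested dropped as well, from 4341 to 3257, 2975 and 1168 in the same order. The added 1 FPKM shrinks the fold of low genes. Hydin and Dnah9 thus missed the minimum with SCI means 2.31 and 2.03 times the ES means. Among the members chosen by rank within each role, the calls of Dnai1, Cfap43, Cfap73, Cfap69, Rsph9 and Cfap300 were lost under both quantile normalization and median centring. Those of Rsph10b, Ak7 and Bbs1 were lost under quantile normalization alone, and those of Bbs2 and Bbs4 under median centring alone. With no filter on level, the calls of Cfap73, Cfap69, Cfap52, Rsph9 and Tekt5 were lost.

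The libraries of a group resembled one another in both classes. Taken against the SCI mean on the log2 scale, the motile members had medians of -0.35, -0.37 and -0.37 in the 3 ES libraries and of 0.018, 0.013 and -0.025 in the SCI libraries. The corresponding transport medians were -0.15, -0.098 and -0.13 in ES. No single library set the motile median, which stayed between -0.41 and -0.36 when each library was left out in turn.

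**Figure D1:**
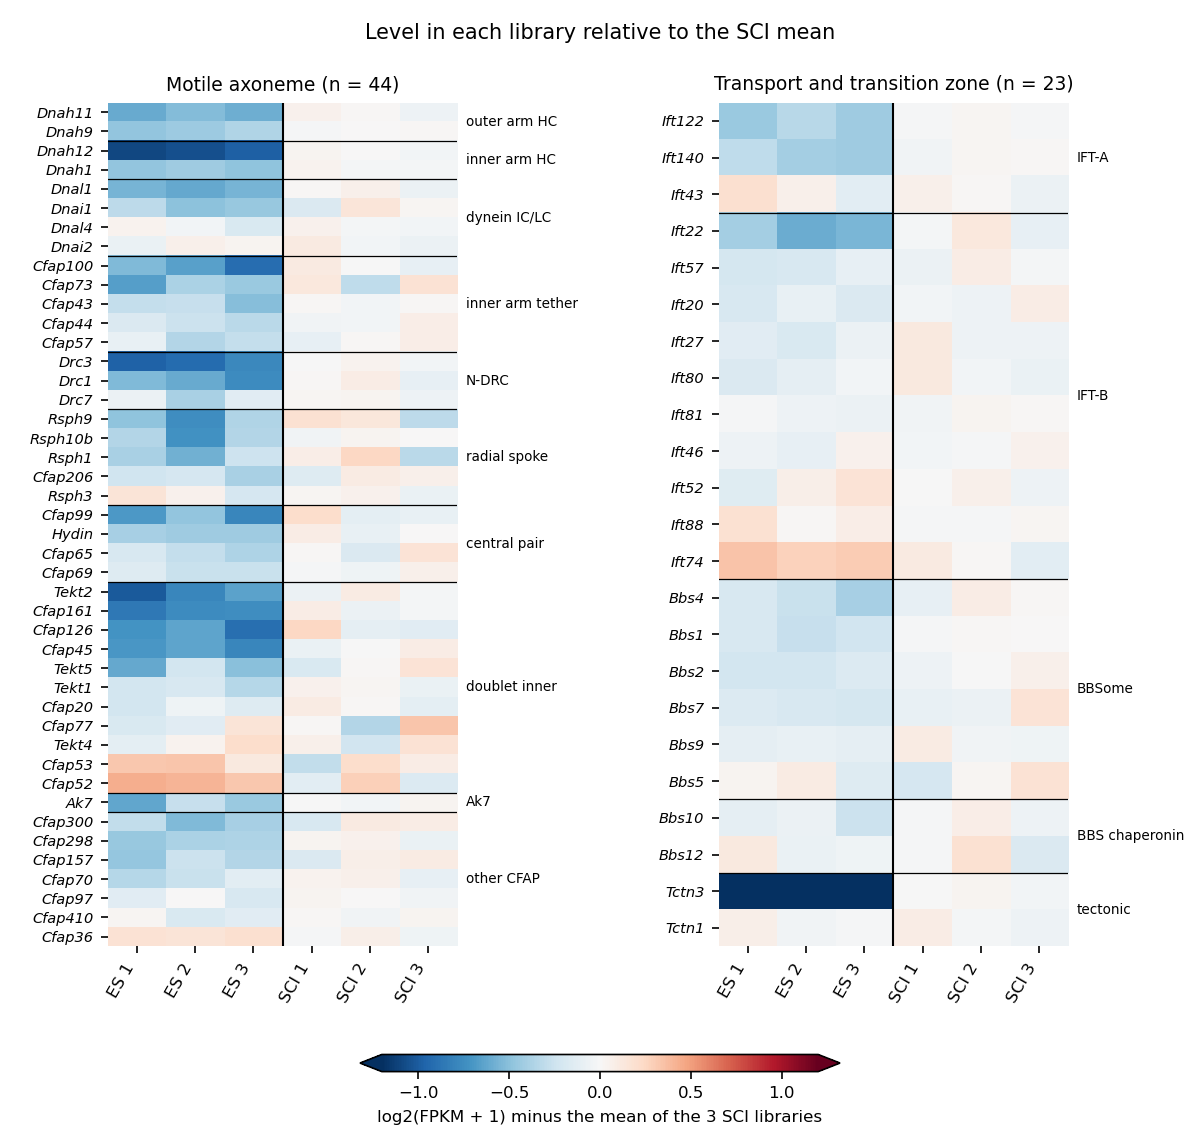
Heat map of the 67 tested members in the 6 libraries, as log2(FPKM + 1) minus the mean of the 3 SCI libraries, with rows ordered by role and by change within a role. Most motile rows are blue in all 3 ES columns, while in the transport panel the strong blue is limited to Tctn3, Ift22, Ift122, Ift140 and, more weakly, BBSome rows.

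Depth and gene length accompany such values and were tabulated. The motile members were low genes, with a median SCI level of 2.48 FPKM against 9.38 FPKM in the transport class. Among all genes tested, the called-lower share changed with level, from 15.02% under 1 FPKM to 30.8% between 2 and 5 FPKM, and within that second band 11 of 16 motile members fell. Between 5 and 10 FPKM, 3 of 3 motile and 3 of 11 transport members fell. Between 10 and 30 FPKM, where 28.9% of all genes tested were called lower, 0 of 3 motile and 3 of 9 transport members fell, and over 30 FPKM 1 of 2 motile members did. Long transcripts were lower in ES in the whole table, with a median log2 fold change of -0.23 over 8 kb. The 5 tested motile members over 8 kb had a median of -0.46, and the 20 under 2 kb had a median of -0.40 where all genes of that length had -0.032.

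Cfap298, whose counterpart is needed for dynein arm assembly and ciliary motility in zebrafish, was the most abundant motile member among those that fell. It stood at 26.0, 27.4 and 27.5 FPKM in ES and at 36.7, 37.3 and 34.0 FPKM in SCI, on 437 to 763 estimated read pairs. Every ES library was below every SCI library, and the SCI mean was 1.33 times the ES mean (-0.40 ± 0.046, adjusted p = 0.000659).

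The proximal promoter of Cfap298 is printed because it was the only motile promoter with a match to the X-box letters searched for here. The X-box is the site that RFX factors, known regulators of ciliary genes, bind. The search took the letters GTTNCC and GGNAAC, with a gap of 1 or 2 bases between them, on both strands, in windows of 250 bases before to 50 after the start of each RefSeq gene on build GRCr8. It also took GTTGCC alone, called core letters because it can be either end of an X-box, and the forkhead letters TGTTTAC. A pair with a longer gap or a changed letter was not counted as an X-box. The Tekt2 and Hydin windows below, with gttgct before GGCAAC, hold such pairs. The X-box counts are thus of these exact letters only. The 250 bases before the Cfap298 start, chr11:43677383-43677632 on the minus strand, read 5′ to 3′ with X-box and core letters in capitals:
Cfap298: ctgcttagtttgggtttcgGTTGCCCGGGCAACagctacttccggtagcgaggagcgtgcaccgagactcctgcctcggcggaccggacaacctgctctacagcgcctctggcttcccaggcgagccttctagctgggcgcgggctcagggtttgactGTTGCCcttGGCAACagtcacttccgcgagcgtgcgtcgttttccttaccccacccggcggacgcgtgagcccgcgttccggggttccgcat
They hold 1 X-box match and 4 core matches, of which 2 are the ends of the X-box. The other core matches face each other across a longer gap, which the search did not count as an X-box.

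Promoters were in the RefSeq table for 71 members, with 97 promoters in all. X-box letters occurred in 0.816% of all 27457 genes of that table, in 1 of 52 motile genes and in 2 of 19 transport genes (Tctn1 and Tctn3). Core letters occurred in 13.1% of all genes, in 34.6% of motile genes (18 of 52) and in 47.4% of transport genes (9 of 19). Counted by promoter, the shares were 12.2%, 26.9% and 47.4%. Within the motile class they occurred in 9 of 23 genes called lower and in 4 of 13 tested and not called, so that the letters were present on both sides of the call. The genes called lower had more promoters to search, and by promoter the counts were 10 of 42 and 4 of 13. Forkhead letters occurred in 4.13% of all genes, in 3 of 52 motile genes and in none of the 19 transport genes, where no match says only that these letters are not in this window.

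Core windows of members from different roles are shown for comparison, with the core letters of either strand in capitals and shorter flanks where a window would run past the start. They are Tekt2 of the doublet wall, chr5:143907728-143907773 on the minus strand, Drc1 of the nexin-dynein regulatory complex, chr6:31779262-31779283 on the minus strand, Hydin of the central pair, chr19:55146452-55146473 on the plus strand, Bbs2 of the BBSome, chr19:10915582-10915603 on the plus strand, and Ift88 of IFT-B, chr15:35688933-35688978 on the plus strand, all on GRCr8:
Tekt2: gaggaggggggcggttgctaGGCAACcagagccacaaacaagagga
Drc1: tttcccttGGCAACggcttgtt
Hydin: gttgctgtGGCAACagatggta
Bbs2: cgctgctaGGCAACcggcctgc
Ift88: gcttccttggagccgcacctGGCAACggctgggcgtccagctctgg
The first 4 genes fell in ES and Ift88 was not called. These windows were chosen among promoters with the letters, so they cannot show whether the letters go with a fall.

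Dynein heavy chains are the motor subunits of the arms. All 4 heavy chains that passed the filter fell, and the other 6 lay under it in these cords. Beside this count and those of the roles below, 27.6% of all genes tested were called lower and 17.4% higher. Dnah12, a heavy chain of single-headed inner arms, was the highest, with 5.06, 5.24 and 5.56 FPKM in ES and 12.2, 12.0 and 11.6 FPKM in SCI. The groups were far apart relative to their spread, at 5.29 ± 0.254 against 11.9 ± 0.289 FPKM (mean ± SD, n = 3), a ratio of 2.25 (log2 fold change -1.04 ± 0.051, adjusted p = 1.93e-05). It was also the most deeply covered heavy chain, with 866 to 2649 estimated read pairs. In the coordinates of the files, for which the sources used here name no build, it lies at chr16:2379480-2534131 on the plus strand.

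Dnah1, the other tested inner arm chain, stood at 0.601, 0.650 and 0.586 FPKM in ES and at 1.28, 1.19 and 1.18 FPKM in SCI (-0.46 ± 0.083, adjusted p = 0.00469). The groups did not overlap, and the SCI mean was 1.99 times the ES mean. Dnah11, an outer arm chain of the proximal axoneme in human airway cilia, stood at 1.89, 2.06 and 1.92 FPKM in ES and 3.55, 3.43 and 3.20 FPKM in SCI (-0.57 ± 0.069, adjusted p = 0.000857). Every ES library again lay below every SCI library. Dnah9, the outer arm chain of their distal axoneme, stood at 0.444, 0.488 and 0.562 FPKM in ES and 0.985, 1.02 and 1.032 FPKM in SCI (-0.43 ± 0.087, adjusted p = 0.00798). Its ES mean lay just under the 0.5 FPKM filter, and the groups did not overlap.

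Under the filter, Dnah2, Dnah5, Dnah6 and Dnah7 were also lower in every ES library than in any SCI library, as were 27.4% of all genes with a value above 0. Without a filter on level, 7 of the 10 heavy chains were called lower, and 1, Dnah17, was called higher, beside 19.6% and 12.2% of all such genes. Dnah17, known mainly from the sperm flagellum of mouse and human, stood at 0.496, 0.403 and 0.396 FPKM in ES and at 0.0776, 0.0725 and 0.09996 FPKM in SCI (log2 fold change 0.40 ± 0.047, adjusted p = 0.0015, without a filter). It went against the 7 heavy chains called lower in all 3 libraries, at levels that rest on 16.2 to 93.5 estimated read pairs. Its gene shares 795 bases with Pgs1 on the opposite strand, which was not called. Dnah8, likewise a sperm chain, reached at most 0.0377 FPKM and had overlapping groups.

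**Figure D2:**
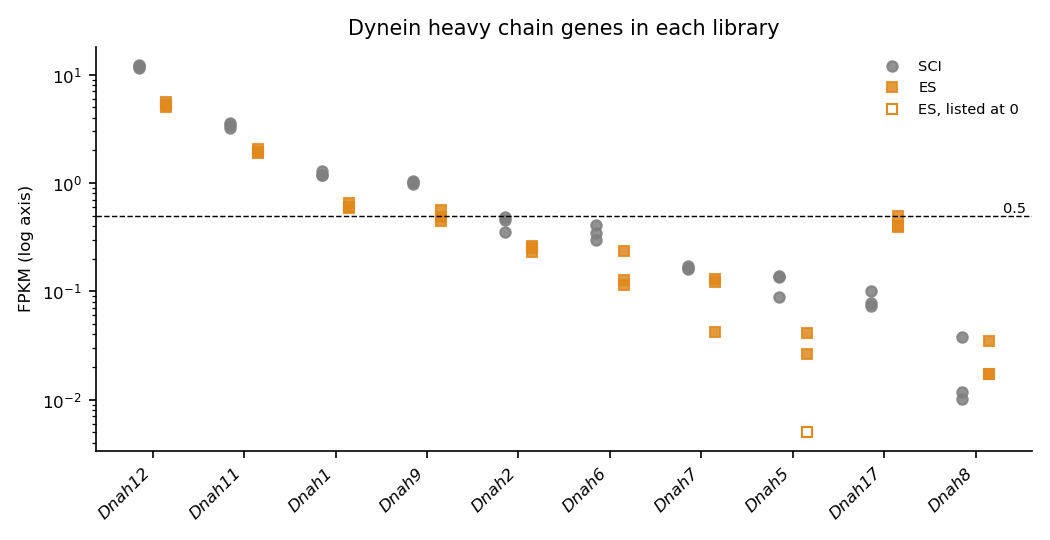
FPKM on a log axis of the 10 dynein heavy chain genes in the 3 SCI libraries (grey circles) and the 3 ES libraries (orange squares), ordered by SCI mean. The open square is the ES library in which Dnah5 was listed at 0, the dashed line is the 0.5 FPKM filter, and Dnah17 is the one chain with all ES values above all SCI values.

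Among the smaller dynein subunits, 2 of 4 fell. Dnal1, an outer arm light chain, stood at 3.79, 3.59 and 3.79 FPKM in ES and 6.09, 6.33 and 5.70 FPKM in SCI (-0.58 ± 0.060, adjusted p = 0.000452). The groups did not overlap. Dnai1, an outer arm intermediate chain, stood at 0.954, 0.728 and 0.780 FPKM in ES and 1.153, 1.70 and 1.48 FPKM in SCI (-0.42 ± 0.11, adjusted p = 0.0241). The groups were apart, but the call was lost when ES 2, ES 3, SCI 2 or SCI 3 was left out. Its partner Dnai2 had overlapping groups, at 0.992 ± 0.105 FPKM in ES and 0.988 ± 0.135 FPKM in SCI (0.0035 ± 0.096, adjusted p = 0.980). Dnal4, a light chain gene at a far higher level of 19.3 ± 1.58 FPKM in ES and 20.05 ± 0.678 FPKM in SCI, was not called (-0.056 ± 0.063, adjusted p = 0.508).

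Cfap43, Cfap44, Cfap57, Cfap73 and Cfap100 tether or modify the inner arms. A fall was called for 3 of the 5. Cfap100 stood at 1.96, 1.73 and 1.28 FPKM in ES and 3.61, 3.27 and 3.00 FPKM in SCI (-0.70 ± 0.12, adjusted p = 0.00346), and the groups did not overlap. Cfap73, with which it forms a complex in Chlamydomonas, stood at 0.121, 0.367 and 0.305 FPKM in ES and 0.935, 0.439 and 1.01 FPKM in SCI (-0.49 ± 0.16, adjusted p = 0.0467). It was one of the least certain calls, resting on 1.42 to 15.7 estimated read pairs and lost on leaving out any library but SCI 2. Its ES mean of 0.264 FPKM was under the filter, which it passed through SCI. Cfap43 stood at 0.853, 0.863 and 0.584 FPKM in ES and 1.28, 1.21 and 1.28 FPKM in SCI (-0.36 ± 0.099, adjusted p = 0.0260). Its groups did not overlap, but the call was lost without ES 3 and without any 1 of the SCI libraries. Cfap44, its partner, was lower in all ES libraries but not called (-0.25 ± 0.090, adjusted p = 0.0593).

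The nexin-dynein regulatory complex links neighbouring doublets and relays signals to the arms. Drc3 stood at 2.70, 2.80 and 3.21 FPKM in ES and 6.19, 6.43 and 6.05 FPKM in SCI. The 2 groups were well apart, with means of 2.90 ± 0.273 and 6.22 ± 0.192 FPKM (SD, n = 3), a ratio of 2.14 (log2 fold change -0.89 ± 0.070, adjusted p = 0.000137). Drc1, a scaffold subunit, stood at 4.47, 4.16 and 3.66 FPKM in ES and 6.95, 7.37 and 6.33 FPKM in SCI (-0.63 ± 0.083, adjusted p = 0.00124), again without overlap. Drc7 lay near the filter and was not called, at 0.482 ± 0.170 FPKM in ES and 0.694 ± 0.0580 FPKM in SCI (-0.20 ± 0.12, adjusted p = 0.216). Of its subunits listed under other symbols, Ccdc65 fell (-0.50 ± 0.066, adjusted p = 0.00128) and Gas8 was not called (-0.16 ± 0.067, adjusted p = 0.0977).

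Radial spokes reach from the doublets to the central pair. Of 8 spoke members 5 were tested and 2 fell. Rsph10b, a spoke head gene, stood at 1.62, 1.02 and 1.62 FPKM in ES and 2.25, 2.43 and 2.37 FPKM in SCI (-0.48 ± 0.12, adjusted p = 0.0172). The groups did not overlap, although the call was lost without SCI 2. Rsph9, another head gene, stood at 2.69, 2.09 and 3.02 FPKM in ES and 4.86, 4.67 and 3.16 FPKM in SCI (-0.53 ± 0.16, adjusted p = 0.0349). The lowest SCI value was close to the highest ES value, the call was lost without ES 1, ES 2, SCI 1 or SCI 2, and the gene overlaps Mrps18a on the opposite strand, which rose. Rsph1 had overlapping groups, at 2.08 ± 0.346 FPKM in ES and 3.12 ± 0.808 FPKM in SCI (-0.41 ± 0.16, adjusted p = 0.0866). Rsph3, a spoke stalk gene, did not move beyond its spread, at 2.05 ± 0.371 FPKM in ES and 2.03 ± 0.147 FPKM in SCI (0.0028 ± 0.11, adjusted p = 0.986).

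The central pair and its projections were represented by 9 genes, of which 4 were tested and 3 fell. Hydin, which builds a central pair projection and whose loss causes hydrocephalus in mice, stood at 0.362, 0.336 and 0.335 FPKM in ES and 0.907, 0.681 and 0.794 FPKM in SCI. No library of one group reached the range of the other, and the SCI mean was 2.31 times the ES mean (-0.41 ± 0.097, adjusted p = 0.0132). Its ES mean of 0.344 FPKM was under the filter, which it passed through SCI, and it was also called with no filter (adjusted p = 0.00454). Its log2 fold change understates that ratio because the level is below the pseudocount of 1 FPKM. Cfap99 stood at 1.19, 1.54 and 1.06 FPKM in ES and 3.10, 2.25 and 2.31 FPKM in SCI (-0.65 ± 0.13, adjusted p = 0.00711), without overlap. Cfap69 differed less, at 1.81 ± 0.128 FPKM in ES and 2.30 ± 0.138 FPKM in SCI (-0.23 ± 0.076, adjusted p = 0.0483), and lost its call on leaving out any 1 of the 6 libraries. Spag17 and Cfap74 were under the filter, and without it both were called lower. Spag16 was listed at 0 in all 6 libraries, and Spag6, which has a near copy, Spag6l, reached at most 0.224 FPKM.

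Microtubule inner proteins line the doublets from within. Of 12 members 11 were tested, 6 fell, 1 rose and 4 were not called, with a median log2 fold change of -0.25. The falls of Tekt2, Cfap161, Cfap126 and Cfap45 were among the 6 largest of the class, and that of Tekt1 among the smallest. Tekt2, a filament-forming tektin, stood at 1.31, 1.71 and 1.98 FPKM in ES and 3.44, 3.96 and 3.55 FPKM in SCI (-0.81 ± 0.11, adjusted p = 0.00141). The ES and SCI ranges were separated by more than the width of either. Cfap161 stood at 0.508, 0.613 and 0.630 FPKM in ES and 1.90, 1.599 and 1.69 FPKM in SCI, and its SCI mean was 2.96 times the ES mean (-0.78 ± 0.089, adjusted p = 0.000648). Cfap45 stood at 2.12, 2.27 and 1.94 FPKM in ES and 3.79, 4.06 and 4.39 FPKM in SCI (-0.71 ± 0.078, adjusted p = 0.000567). Neither gene had overlapping groups. Cfap126 (-0.75 ± 0.13, adjusted p = 0.00393), Tekt1 (-0.25 ± 0.063, adjusted p = 0.0174) and Tekt5 (-0.45 ± 0.15, adjusted p = 0.0488) fell too. Tekt5 passed the filter only through SCI, at 0.896 FPKM against 0.396 FPKM in ES, and its call was lost with no filter (adjusted p = 0.0518) and with a pseudocount of 0.1 (adjusted p = 0.0566).

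Other inner proteins did not follow. Cfap52, at the inner junction of the doublet, stood at 3.55, 3.47 and 3.22 FPKM in ES and 2.09, 3.11 and 2.02 FPKM in SCI (0.39 ± 0.13, adjusted p = 0.0485). All ES libraries were above all SCI libraries, but SCI 2 lay near them and the call was lost when any library except SCI 2 was left out, and with rescaling to equal totals. Cfap53, needed for left-right patterning in vertebrates, had overlapping groups, at 0.742 ± 0.141 FPKM in ES and 0.469 ± 0.256 FPKM in SCI (0.26 ± 0.16, adjusted p = 0.224). Tekt4 also overlapped, at 1.63 ± 0.294 FPKM in ES and 1.55 ± 0.354 FPKM in SCI (0.046 ± 0.14, adjusted p = 0.813). Cfap20, an inner junction protein of motile and primary cilia alike, was the highest of the group and was not called, at 21.4 ± 1.29 FPKM in ES and 23.8 ± 1.81 FPKM in SCI (-0.14 ± 0.067, adjusted p = 0.129).

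**Figure D3:**
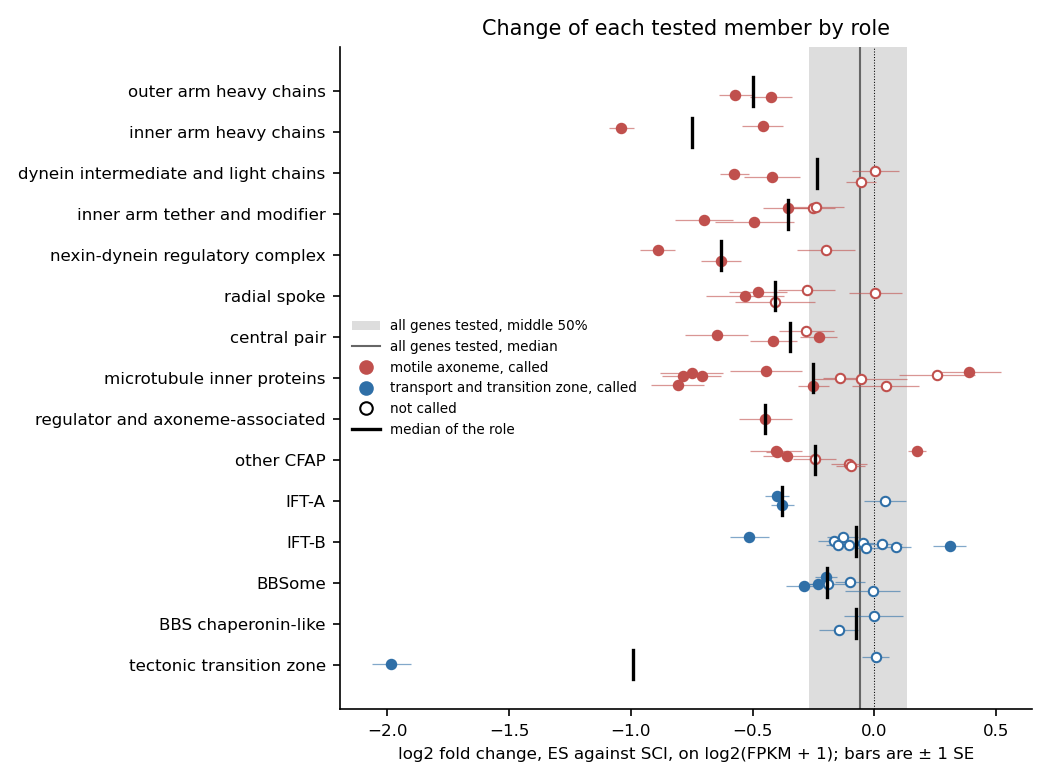
Log2 fold change, ES against SCI, of the 67 tested members by role, with bars of 1 SE, filled points for called genes, black ticks for role medians and a grey band for the middle 50% of all genes tested. All motile roles have medians below that of all genes tested, and the tectonic point at the far left is Tctn3, whose place is set by the pseudocount because its ES values are 0.

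Ak7, Pifo and several Cfap genes of other or broader roles completed the class. Ak7, an adenylate kinase of motile cilia, stood at 0.798, 1.28 and 1.04 FPKM in ES and 1.76, 1.71 and 1.84 FPKM in SCI (-0.45 ± 0.11, adjusted p = 0.0150), without overlap. Pifo, which acts at the ciliary base, was under the filter with overlapping groups. Cfap300, a factor for dynein arm assembly, stood at 3.46, 2.78 and 3.14 FPKM in ES and 3.76, 4.86 and 4.81 FPKM in SCI (-0.40 ± 0.11, adjusted p = 0.0222). Its groups did not overlap, but the call was lost without ES 2, ES 3, SCI 2 or SCI 3.

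Cfap36, which binds the small GTPase Arl3 and is not specific to motile cilia, was the highest member of all and rose. It stood at 69.3, 68.3 and 69.8 FPKM in ES and 60.4, 64.1 and 59.1 FPKM in SCI (0.17 ± 0.036, adjusted p = 0.00798). The difference was small, with an ES mean 1.13 times the SCI mean, but no library of one group reached the other. The call was lost when libraries were rescaled to equal totals. Cfap410, Cfap70 and Cfap97 were not called, and Cfap58, Cfap58l1 and Cfap97d1 were listed at 0 in all libraries.

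**Figure D4:**
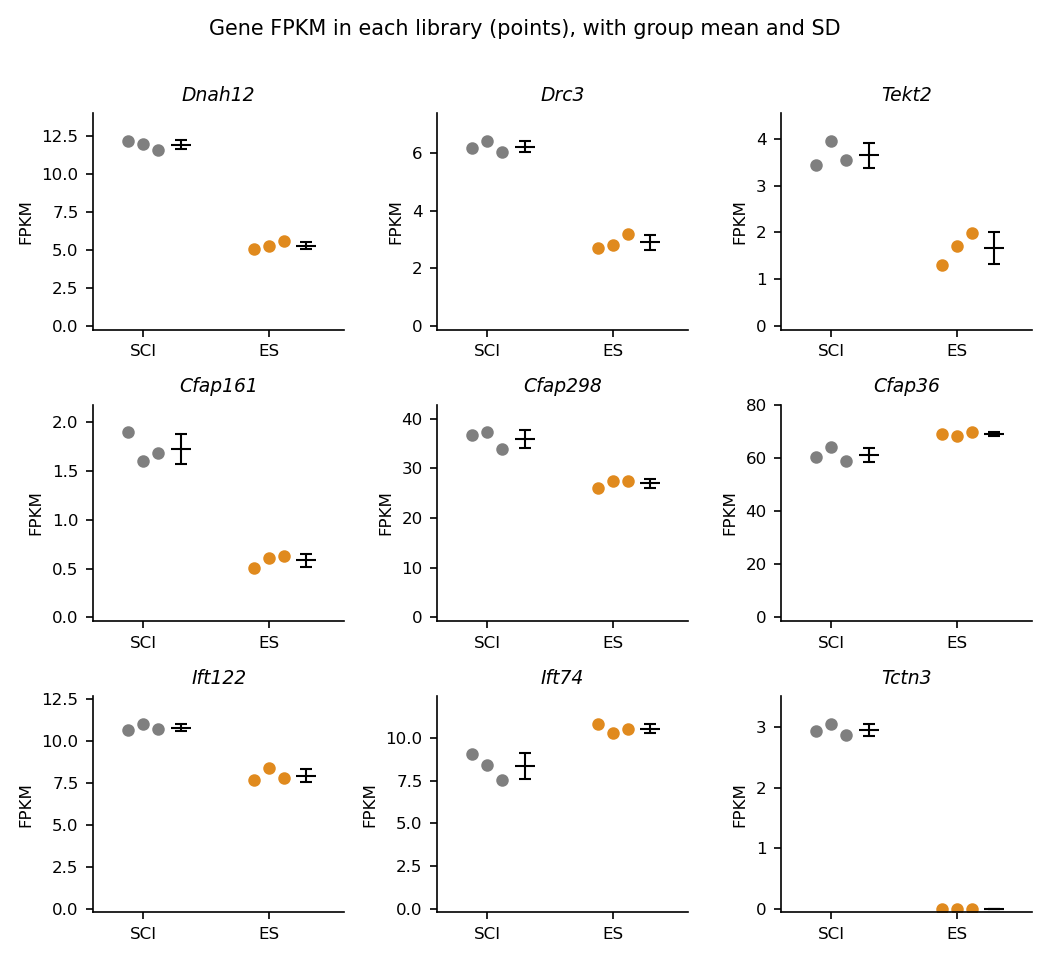
FPKM of 9 members in each library, with SCI in grey and ES in orange and with group means and SD (n = 3) beside the points. Dnah12, Drc3, Tekt2, Cfap161, Cfap298 and Ift122 are lower in every ES library, Cfap36 and Ift74 are higher in every ES library, and Tctn3 is listed at 0 in all 3 ES libraries.

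In the transport class, the IFT-A complex, which is needed for return transport and brings membrane proteins into cilia, gave 2 falls among 3 members. Ift122 stood at 7.66, 8.38 and 7.80 FPKM in ES and 10.7, 11.0 and 10.7 FPKM in SCI (-0.40 ± 0.049, adjusted p = 0.000861). The ES values lay below the SCI values without overlap, and the SCI mean was 1.36 times the ES mean. Ift140 stood at 13.6, 12.6 and 12.5 FPKM in ES and 16.5, 17.3 and 17.3 FPKM in SCI (-0.38 ± 0.047, adjusted p = 0.000921). It shares 25402 bases with Tmem204 on the opposite strand, which fell by 0.99 on the log2 scale, and the sources used here do not say whether counting used strand. Ift43 had overlapping groups, at 12.0 ± 1.43 FPKM in ES and 11.5 ± 0.555 FPKM in SCI (0.042 ± 0.086, adjusted p = 0.726).

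The remaining IFT-A subunits have symbols outside the rule, and grouping them was decided after their values were seen. Wdr19 stood at 3.67, 3.72 and 3.40 FPKM in ES and 5.06, 5.01 and 5.17 FPKM in SCI (-0.40 ± 0.058, adjusted p = 0.00172). Wdr35 stood at 6.61, 6.45 and 5.71 FPKM in ES and 8.41, 9.32 and 8.71 FPKM in SCI (-0.44 ± 0.068, adjusted p = 0.00255). Ttc21b stood at 2.48, 3.17 and 2.69 FPKM in ES and 3.91, 4.35 and 4.05 FPKM in SCI (-0.44 ± 0.087, adjusted p = 0.00712). None of these 3 had overlapping groups, and all were called lower. In all, 5 of the 6 IFT-A genes fell, beside 27.6% of all genes tested, with a median log2 fold change of -0.40.

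The IFT-B complex, which is needed for outward transport, gave 1 fall and 1 rise among 10 members. Ift22, a small GTPase of the complex, stood at 7.48, 6.44 and 6.69 FPKM in ES and 10.04, 11.2 and 9.47 FPKM in SCI (-0.51 ± 0.079, adjusted p = 0.00237). The groups were apart, with the SCI mean 1.49 times the ES mean. Ift74, which with Ift81 binds tubulin cargo, stood at 10.8, 10.3 and 10.5 FPKM in ES and 9.07, 8.41 and 7.56 FPKM in SCI (0.31 ± 0.067, adjusted p = 0.0103). It was higher in every ES library, whereas Ift81 was not called (-0.048 ± 0.048, adjusted p = 0.447).

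The other 8 IFT-B members, core and peripheral, were not called. Ift88, whose loss removes cilia in mice, had overlapping groups, at 5.45 ± 0.384 FPKM in ES and 5.05 ± 0.0737 FPKM in SCI (0.090 ± 0.062, adjusted p = 0.281). Ift52 also overlapped, at 18.5 ± 2.11 FPKM in ES and 18.1 ± 0.819 FPKM in SCI (0.030 ± 0.083, adjusted p = 0.798). Ift20, which also acts at the Golgi and was the highest transport member, was lower in all ES libraries but not called, at 25.2 ± 1.01 FPKM in ES and 28.1 ± 1.63 FPKM in SCI (-0.15 ± 0.052, adjusted p = 0.0543). With the subunits under other symbols added, 3 of 16 IFT-B genes fell (18.75%, beside 27.6% of all genes tested) and 1 rose. Their median log2 fold change was -0.076. The contrast between IFT-A and IFT-B was not tested.

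Of 6 BBSome genes 3 were called lower (50.0%, beside 27.6% of all genes tested) and none higher. Bbs5 had overlapping groups (-0.0080 ± 0.11, adjusted p = 0.963), and Bbs7 and Bbs9 were not called. Bbs4 stood at 12.7, 12.0 and 10.8 FPKM in ES and 13.6, 15.6 and 14.8 FPKM in SCI (-0.29 ± 0.072, adjusted p = 0.0174). The groups did not overlap, but the call was lost without SCI 2 or SCI 3. Bbs1 stood at 7.48, 7.00 and 7.27 FPKM in ES and 8.58, 8.75 and 8.70 FPKM in SCI (-0.23 ± 0.046, adjusted p = 0.00705). Bbs2 stood at 11.7, 11.7 and 12.3 FPKM in ES and 13.2, 13.8 and 14.4 FPKM in SCI (-0.20 ± 0.046, adjusted p = 0.0127). Both were lower in every ES library, with SCI means 1.197 and 1.16 times the ES means. The chaperonin-like genes that help assemble the BBSome were not called, Bbs10 with ES below SCI in all libraries (-0.15 ± 0.080, adjusted p = 0.183) and Bbs12 with overlapping groups (-0.0039 ± 0.12, adjusted p = 0.983).

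The tectonics, transition zone proteins of primary and motile cilia, parted. Tctn3 was listed at 0 in all 3 ES libraries and at 2.93, 3.06 and 2.88 FPKM in the SCI libraries (adjusted p = 8.71e-06). No fold is given for it, since a fitted change against a group at 0 is set by the pseudocount. Tctn1 had overlapping groups, at 12.2 ± 0.561 FPKM in ES and 12.1 ± 0.690 FPKM in SCI (0.0051 ± 0.056, adjusted p = 0.952). Tctn3 had a single listed transcript of 14 exons, at chr1:259682249-259691742 on the minus strand in the files' coordinates. It was 1 of 3 genes in the table listed at 0 in every ES library with at least 2 FPKM in every SCI library, and 6 genes showed the reverse. A value listed at 0 can come from how the authors' program assigned reads, which was not tested.

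The promoters of the tectonics are printed as the only transport promoters with X-box letters, which are in capitals. The 250 bases before the Tctn3 start were chr1:249374699-249374948 on the minus strand of GRCr8, and the Tctn1 window, chr12:39970603-39970631 on the plus strand, lies past its start:
Tctn3: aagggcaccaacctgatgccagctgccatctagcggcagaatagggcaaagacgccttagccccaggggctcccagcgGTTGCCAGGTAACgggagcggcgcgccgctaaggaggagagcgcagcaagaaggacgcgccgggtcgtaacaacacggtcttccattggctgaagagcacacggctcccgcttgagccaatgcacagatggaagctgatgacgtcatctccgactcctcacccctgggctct
Tctn1: ctgtgactGTTGCCCGGCAACagacaggc
The genes with these letters were thus 1 that was listed at 0 in ES, 1 that was not called and, in the motile class, Cfap298, which fell.

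Ciliary genes outside the naming rule were taken from lists, and their shares did not repeat the order seen under the rule: the motile share called lower, 31.4%, was near the 27.6% of all genes tested and under the 42.1% of IFT genes and the 42.9% of transition zone genes. By median log2 fold change the motile genes came lowest of these, at -0.26. Transition zone genes had -0.19, IFT genes -0.12 and BBSome partners -0.019. None of these differences was tested. Of 35 tested genes of the motile axoneme under other names, 11 fell and 1 rose, with a median log2 fold change of -0.26. Lrrc71 (-0.63 ± 0.095, adjusted p = 0.00220), Ropn1l (-0.62 ± 0.11, adjusted p = 0.00509) and Ccdc170 (-0.54 ± 0.11, adjusted p = 0.00925) had the largest called falls, and Tcte1, a nexin-dynein regulatory complex gene, was the rise (0.33 ± 0.073, adjusted p = 0.0105). These and the other genes named from lists outside the rule were chosen after their values were seen.

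Dynein arm assembly factors, which fold and load arms in the cytoplasm, gave 4 falls and 1 rise among 13 tested, and the 30.8% called lower was near the 27.6% of all genes tested. The largest fall was that of Ccdc103, at 3.13, 3.41 and 2.93 FPKM in ES and 7.00, 8.73 and 8.24 FPKM in SCI (-1.11 ± 0.090, adjusted p = 0.000153). Its ES values were tightly grouped below the SCI values. Spag1 (-0.54 ± 0.077, adjusted p = 0.00173), Daw1 (-0.37 ± 0.086, adjusted p = 0.0133) and Dnaaf3 (-0.43 ± 0.13, adjusted p = 0.0330) fell as well. Ruvbl2, an ATPase with many roles outside cilia, rose (0.14 ± 0.032, adjusted p = 0.0120).

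Regulators of multiciliation were mixed, with 2 falls and 2 rises among 13 tested, or 15.4% lower beside 27.6% of all genes tested. Without a filter on level, 4 fell and 2 rose. Rfx4, a brain and spinal cord member of the RFX family, fell (-0.70 ± 0.056, adjusted p = 0.000149), as did Rfx1 (-0.25 ± 0.068, adjusted p = 0.0222). Rfx3, closely tied to ciliary genes, was not called, at 0.689 ± 0.158 FPKM in ES and 1.09 ± 0.260 FPKM in SCI (-0.30 ± 0.13, adjusted p = 0.107). Tfdp1 and Fhad1 rose, with log2 fold changes of 0.21 and 0.34. Under the filter, Ccdc78, a deuterosome gene, stood at 0.0805, 0.0841 and 0.132 FPKM in ES and 0.497, 0.448 and 0.457 FPKM in SCI, and Myb, a transcription factor of multiciliated cell precursors, at 0.228, 0.324 and 0.300 FPKM in ES and 0.604, 0.586 and 0.693 FPKM in SCI. Both were lower in every ES library. Gmnc, Mcidas and Ccno, which start the multiciliation programme, were at or near 0 in both groups.

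Of 19 other IFT subunits and motors 8 fell (42.1%) and 1 rose, with a median log2 fold change of -0.12. Kif17, a kinesin of cilia and dendrites, was the rise (0.40 ± 0.059, adjusted p = 0.00215), whereas the kinesin-2 subunits Kif3a and Kif3b were not called. Of 11 BBSome partners 3 fell (27.3%, beside 27.6% of all genes tested) and 2 rose, with a median of -0.019. Of 21 other transition zone genes 9 fell (42.9%) and 1 rose, with a median of -0.19. Cc2d2a (-0.54 ± 0.055, adjusted p = 0.000437), Cplane1 (-0.54 ± 0.090, adjusted p = 0.00335) and Tmem107 (-0.52 ± 0.071, adjusted p = 0.00138) had the largest transition zone falls, and Ahi1 was the rise (0.36 ± 0.071, adjusted p = 0.00650).

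Signalling genes of the primary cilium fell in 9 of 16 cases, with none higher. That share, 56.25%, was above the 27.6% of all genes tested and close to the 59.1% of the motile class. Gli3, a hedgehog pathway transcription factor, stood at 0.888, 0.926 and 1.07 FPKM in ES and 2.45, 2.30 and 2.54 FPKM in SCI (-0.81 ± 0.080, adjusted p = 0.000355). Smo, the hedgehog signal transducer that enters cilia, stood at 9.35, 10.5 and 9.19 FPKM in ES and 16.2, 15.8 and 15.2 FPKM in SCI (-0.65 ± 0.060, adjusted p = 0.000273). Groups overlapped for neither gene. The receptor gene Ptch1 was not called (0.087 ± 0.042, adjusted p = 0.137), and neither was Gli2 (-0.23 ± 0.11, adjusted p = 0.137).

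**Figure D5:**
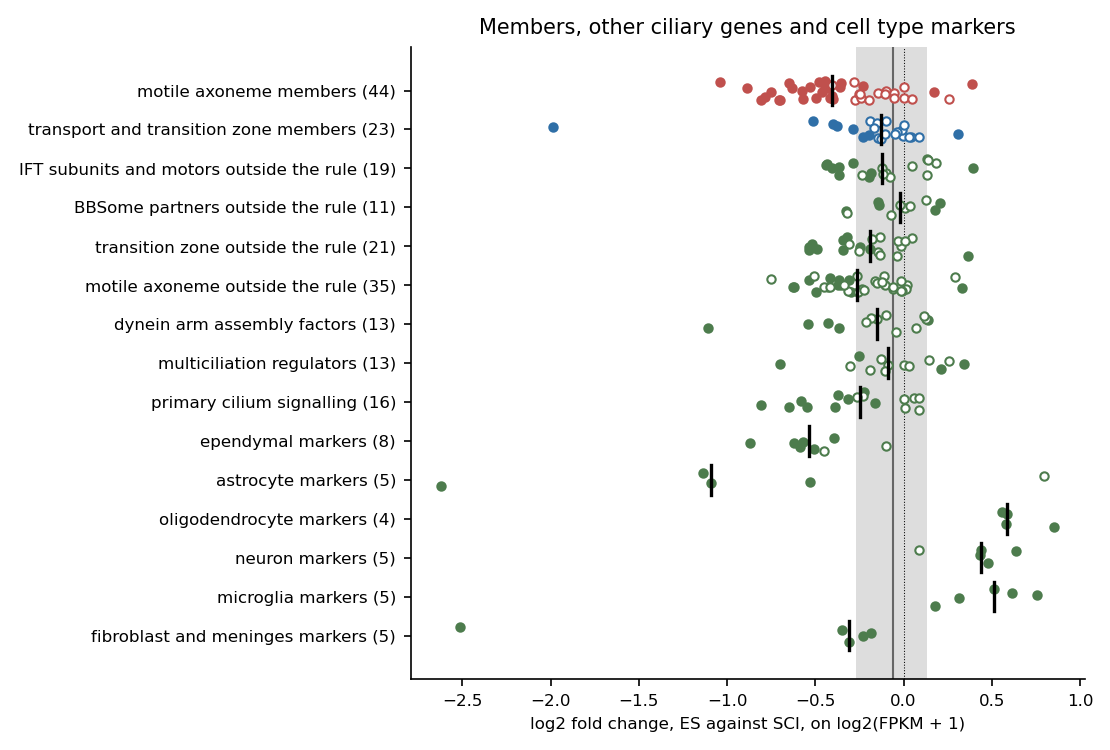
Log2 fold change, ES against SCI, of tested members (red and blue), ciliary genes outside the rule and cell type markers (green), with filled points for called genes, black ticks for medians and a grey band for the middle 50% of all genes tested. Ependymal markers and 4 of 5 astrocyte markers lie to the left with most motile axoneme members, the astrocyte marker to the right is Slc1a3, and oligodendrocyte, neuron and microglia markers lie to the right.

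Most tested ependymal and astrocyte markers were called lower, as were most tested motile genes. Oligodendrocyte, microglia and most neuron markers were called higher, as given above. The 9 listed ependymal markers summed to 240 to 242 FPKM in ES and to 336 to 358 FPKM in SCI. Much of the SCI sum came from a single marker with a mean of 184 FPKM. Of the 8 tested ependymal markers 6 fell, with none higher and a median log2 fold change of -0.54. Tmem212, a marker of multiciliated ependyma, stood at 0.302, 0.248 and 0.485 FPKM in ES and 1.66, 1.16 and 1.58 FPKM in SCI (-0.87 ± 0.12, adjusted p = 0.00167). Its groups did not overlap, but every ES value was under the 0.5 FPKM filter, which it passed through SCI. Mia and Dynlrb2 were not called and Sntn was at or near 0. Several ependymal markers, such as Cd24, Nnat and Prom1, are also expressed by other cells, and Dynlrb2 is itself an axonemal gene. The 5 astrocyte markers summed to 2063 to 2218 FPKM in ES and 3239 to 3276 FPKM in SCI. Most of the SCI sum came from a single marker with a mean of 2880 FPKM. Of the 5 astrocyte markers, Slc1a3 was not called, with overlapping groups of 15.9, 59.4 and 62.0 FPKM in ES and 41.0, 16.4 and 15.7 FPKM in SCI. Of the 3 choroid plexus markers Ttr and Kl were at or near 0, while Folr1 stood at 2.70, 2.52 and 2.19 FPKM in ES and 4.05, 4.01 and 3.77 FPKM in SCI and fell (-0.51 ± 0.078, adjusted p = 0.00233), and their sum was 2.45 to 2.85 FPKM in ES and 3.84 to 4.23 FPKM in SCI. The 5 spermatid markers, from the other tissue rich in axonemes, summed to at most 0.603 FPKM in every library. The part of these cell types in the motile result was not tested.

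Transcript values are not a second measurement, because a gene with 1 listed transcript has the same FPKM in both. Only 21 of the 86 members had at least 2 listed transcripts. Of 44 motile transcripts tested 17 fell and 1 rose, and of 28 transport transcripts 7 fell and 1 rose, beside 19.5% and 12.8% of all transcripts tested. A change in transcript usage could be tested in Ift80, Ift46, Bbs9 and Ift122, and 0 of 4 were called by diffSplice and the Simes method, where 13.3% of all genes with at least 2 tested transcripts were called. Ift122, for example, was carried by its long transcript of 30 exons, which held 86.4% to 96.3% of the gene's summed transcript FPKM in every library and fell itself. For genes with several transcripts the gene value is not the sum of the transcript values.

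Without a filter on level, 29 of the 59 motile members with any value above 0 were called lower and 2 higher, where 19.6% and 12.2% of all such genes were, and the 2 were Cfap36 and Dnah17. All ES libraries lay below all SCI libraries in 38 of the 59 and above in 3, where 27.4% and 17.1% of genes with any value did so. In the authors' deposited table, whose marks need a change of at least 2-fold and a p-value below 0.05, 12 motile members were marked down and 1, Dnah17, up, and of the transport members Tctn3 alone was marked. The authors' deposited table marks 2.31% of all its genes down and 0.84% up.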

How the data were processed

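RNA was measured in 6 rat spinal cord libraries, grouped by their treatment labels. Per the labels' protocols, poly(A) RNA from 1 ug of total RNA was made into stranded paired-end libraries. The submitters' processing notes name HISAT and StringTie, and the sources used here give no version, genome build or annotation. The authors deposited FPKM per library for 32623 genes and 40808 transcripts, with 0.0001 in place of 0, which was set to 0. They also deposited a fold ratio per feature, its log2, a p-value and a q-value, whose test the sources used here do not name.

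The two-sided test was limma's (version 3.58.1, R 4.3.3) with a mean-variance trend on log2(FPKM + 1), for genes whose mean over all libraries reached 0.5 FPKM. P-values were adjusted by Benjamini-Hochberg across every gene tested, a call needs an adjusted p under 0.05, and ± after a log2 fold change is the SE. Transcripts were fitted likewise, and usage with diffSplice and Simes p-values. The spacing of the lowest transcript values gave an estimate of depth, taking 1 step as 1 read pair, and read pairs per gene follow from it and cover counting error only.

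Members and lists were chosen with earlier results of these data known. The rule for named genes took, in each role, up to 3 tested members by smallest p, the one with the highest mean and those against the direction of most called members. Alternatives were the pseudocount, the filter, the scaling, the trend, array weights, a replicate block, a fold minimum and leaving out each library. Same-numbered libraries did not deviate together (correlations of -0.026, -0.026 and -0.029), so the numbers were not taken as pairs. Small positive correlations joined ES 3 with SCI 1 (0.080), ES 1 with SCI 2 (0.076) and ES 2 with SCI 3 (0.078), and every other pair was negative. Whether these libraries share a batch or a pairing was not tested. Near copies (Spag6 and Spag6l) and genes that overlap on opposite strands are uncertain.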

Additional observations from a re-analysis of the deposited data

How the results depend on the processing

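The motile median log2 fold change of -0.40 was negative under every alternative run: -0.64 with a pseudocount of 0.1, -0.25 with no filter, -0.38 with array quality weights, and, among 3 scalings, -0.27 for quantile normalization, -0.31 for median centring and -0.45 for rescaling to equal totals, with -0.41 to -0.36 on leaving out each library. The transport median of -0.13 was -0.0068, -0.038 and -0.20 under the 3 scalings in the same order, -0.14 to -0.11 on leaving out each library, -0.10 for Ift genes and -0.17 for Bbs and Tctn genes. The 26 motile falls became 15, 17 and 29 under these scalings and 14 with a filter of 2 FPKM, which leaves fewer members. They became 9 with a minimum of 1.5-fold, which was applied to FPKM + 1. Among the named members, the calls kept under each alternative that could be fitted were those of Cfap99, Dnah12, Cfap100, Cfap161, Cfap45, Tekt2, Drc1 and Drc3, and Tctn3 in the transport class. The 2 motile rises became 1 with a pseudocount of 0.1, with no trend, with the replicate block and without members of broader roles, 0 after rescaling and with a 1.5-fold minimum, and 1 to 2 on leaving out each library. The 7 transport falls became 11 after rescaling, 1 at 1.5-fold, 3 for Ift genes and 4 for Bbs and Tctn genes, and the 1 rise became 2 after quantile normalization and 0 at 1.5-fold and for Bbs and Tctn genes. Over all genes, 4341 falls and 2747 rises became 3257 and 3414 with quantiles made equal, 2975 and 4021 with medians made equal, 5584 and 2070 with totals made equal, and 1168 and 540 at 1.5-fold, where transcripts gave 1339 and 644. The cause of these shifts was not tested.

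With a replicate block, 3851 genes fell and 2466 rose, with 19 falls in the motile class and 7 falls and 1 rise in the transport class. That block used the replicate numbers, whose same-numbered libraries did not deviate together. Signs that turned belonged to genes that were not called: Bbs10 at 0.0040 and Bbs12 at 0.12 (quantile normalization), Bbs12 at 0.088 and Dnal4 at 0.036 (median centring), Bbs12 at 0.018 (array quality weights), Rsph3 at -0.000011 (pseudocount 0.1), and Ift43 at -0.027, Ift52 at -0.040, Dnai2 at -0.033, Rsph3 at -0.047 and Tctn1 at -0.063 (rescaling). On leaving out each library, log2 fold changes ranged from -0.092 to 0.089 for Bbs12, -0.032 to 0.058 for Dnai2, -0.11 to 0.0061 for Dnal4, -0.032 to 0.13 for Ift43, -0.037 to 0.12 for Ift52, -0.071 to 0.10 for Rsph3, -0.029 to 0.047 for Tctn1 and -0.069 to 0.13 for Tekt4. For members under about 2 FPKM, such as Cfap73, low depth limits what a missed call can show.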
